A study of Platichthys stellatus with 16 samples.

Results

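The cytosolic ribosomal proteins of the starry flounder (Platichthys stellatus), a flatfish, were described as the features of the deposited table whose Swiss-Prot description opens with 40S ribosomal protein or 60S ribosomal protein. This rule took 127 of 16270 assembled features, 53 of the small subunit and 74 of the large subunit, under 73 protein names. The 8 groups were female gonad, male gonad, female brain, male brain, female liver, male liver, female muscle and male muscle, all of 3-year-old fish, with 2 RNA-seq libraries in each group. The series text lists pituitary where the sample labels list muscle, and the sample labels were followed. No treatment or allele is given for any group, and the labels do not say which fish gave which library, so p-values measure the spread between these libraries.

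A cytosolic ribosome is built from a small subunit, which reads the messenger RNA, and a large subunit, which joins the amino acids, and each holds many proteins around ribosomal RNA. The proteins are needed in matched amounts, and in vertebrates their messages carry a terminal oligopyrimidine (TOP) motif through which their translation is set by mTOR signalling. In fish, oocytes stock ribosomes for the embryo, liver makes plasma proteins and yolk precursor, and muscle makes contractile proteins.

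Each feature is an assembled gene named after its closest protein, so a feature may be a fragment or 1 of several close copies. Of the 73 names, 32 had 1 feature and 41 had several, up to 4. Of 74 names of a standard vertebrate list, 70 were found, and S10, S21, S25 and L41 were not analysed here. The acidic stalk proteins P0, P1 and P2 and the ubiquitin fusions fall outside the rule and are given with the other translation genes. Identifiers are given here without the shared opening TRINITY of the deposited table. The closest nucleotide match of a member was a flatfish sequence for 44 members, another fish for 69, a cyprinid fish for 10, a rodent for 2 (S5 and S19), a moth for 1 (L10a DN141521) and none for 1 (SA DN125792_c2_g2). All 127 members passed the filter on low values, which removed no feature of the table.

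Total estimated counts ran from 5134221 to 12972574 per library, and the table holds 51.4 to 80.5% of the counts of a library, with library totals worked out from each feature's count, length and FPKM. Values between libraries are TMM-scaled CPM, counts scaled to an equal library size, and log2 differences are from edgeR's quasi-likelihood test on counts, with Benjamini-Hochberg adjustment over all 16270 features and a threshold of 0.05. FPKM, which divides by length, is used to compare levels between members. The labelled tissues held their matched markers: the brain marker MBP stood at 134 to 1852 FPKM in the brain libraries and at most 9.47 elsewhere. The 3 muscle actins summed to 28223 FPKM or more in muscle and at most 2823 elsewhere. Outside muscle they were highest in male brain, at 2823 and 2758 FPKM, against 1369 and 1811 FPKM in female brain. The 6 liver features summed to 38296 FPKM or more in liver and at most 147 elsewhere. The matched gonad marker, the sperm tail protein odf3, stood at 53.0 and 51.4 FPKM in female gonad and at 47.9 and 50.3 FPKM in male gonad, so it did not tell the sexes of gonad apart. In bulk tissue, fewer cells of a type and less RNA per cell cannot be told apart.

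Ribosomal protein messages took the largest part of the counts in female liver and the smallest in male brain, as group means. They made up 14.3 and 7.68% of the table's counts in female liver 1 and 2, and 10.2 and 5.31% in male liver 1 and 2. In muscle they made up 6.41 and 5.40% in females and 11.02 and 6.45% in males. In gonad the share was 4.06 and 3.75% in females and 5.03 and 2.86% in males. Female and male brain were far apart, with 7.76 and 5.95% in females and 1.95 and 3.05% in males. The brain groups did not overlap, while the sexes overlapped in liver and gonad. In muscle the lowest male library, at 6.45%, lay just above the highest female library, at 6.41%.

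**Figure D1:**
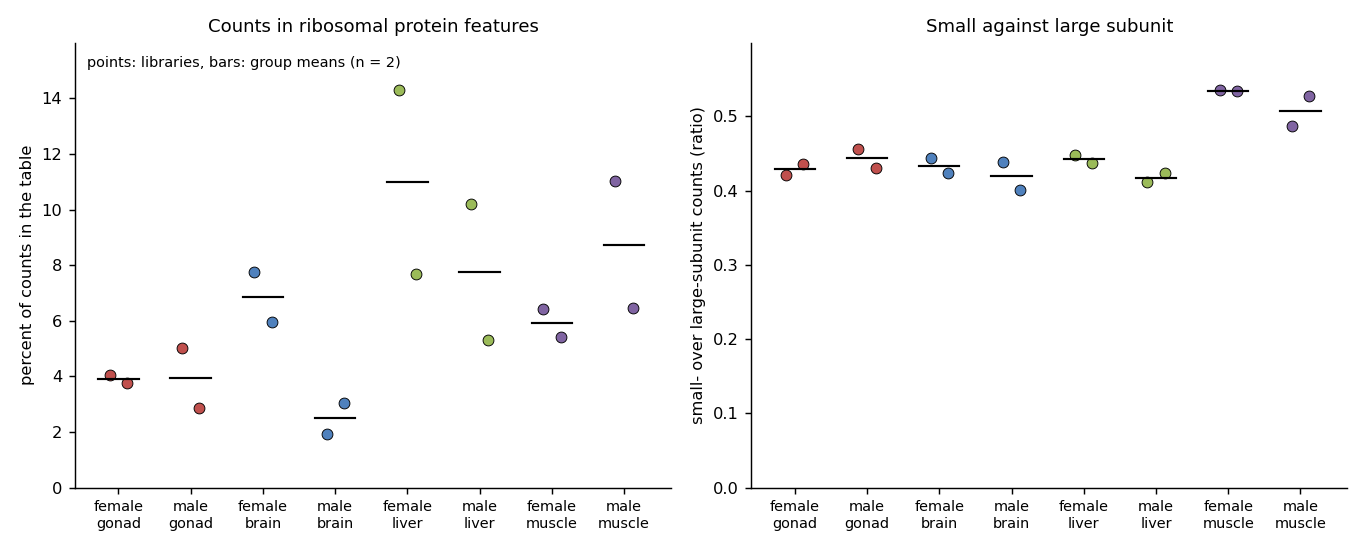
Share of the table's counts in ribosomal protein features (left, percent) and ratio of small- to large-subunit counts (right) in the 16 libraries of the 8 groups, with points for libraries and bars for group means (n = 2). Male brain has the lowest group mean on the left, with libraries at 1.95 and 3.05% and male gonad 2 between them at 2.86%. The 4 muscle libraries stand above the other 12 on the right.

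The median member gave the following order. It stood at 356 ± 223 CPM in female liver, 204 ± 154 in male liver, 193 ± 164 in male muscle, 167 ± 31.9 in female muscle and 160 ± 42.1 in female brain (SD, n = 2 each). Female gonad, at 46.4 ± 4.19 CPM, and male gonad, at 46.3 ± 23.8, came next, and male brain was last at 21.5 ± 7.60 CPM. Neighbours within the first 5 groups did not differ beyond their spread, and neither did the 2 gonads. Female liver was the highest group for 100 members, and male brain the lowest for 94. Female gonad was the lowest group for 27 members and the highest for 4.

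Per length, members spanned a mean of 1.16 to 34935 FPKM over the 16 libraries, with a median of 1726 against 14.3 for all features, and 78 members exceeded 1000 FPKM. The highest were L35 DN132241 at 34935 FPKM, L17 DN124356_c1_g3 at 11928, L32 at 11300, S3 DN124917_c2_g1 at 9827 and L37a at 9009. S3 lines the channel through which the message enters the small subunit, and L35 and L17 surround the exit of the peptide tunnel of the large subunit. The lowest were S11 DN140805_c3_g2 at 1.16 FPKM, L39 at 1.24 and L22 DN129802_c1_g2 at 2.77. S11 and L22 also had higher features of the same name, while L39 had this feature alone. The effective length behind FPKM was under 50 bases for 45 members, and FPKM of such short features is uncertain. Each of the 5 highest was among them, at 42.3 bases for L35 DN132241, 3.81 for L17, 6.24 for L32, 14.1 for S3 and 9.76 for L37a. Their place at the top thus rests in part on these short lengths. In FPKM, the narrowest range of group means, taken on the log2 scale, was that of L35a DN128077_c2_g4. Its highest group, male muscle, stood 2.08-fold above its lowest, female liver, and L35 DN132241 spanned 2.71-fold. The widest were S13 DN149243_c1_g1 at 34.5-fold, L10a DN141521 at 32.5-fold and S27 DN133670 at 30.2-fold.

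The ratio of small- to large-subunit counts was steady outside muscle. It ran from 0.401 to 0.456 over the 12 libraries of gonad, brain and liver, against 0.535 and 0.534 in female muscle and 0.486 and 0.527 in male muscle, so muscle did not overlap the rest. S2, S27-like and L3 were set aside after their values were seen, and the ratio then ran from 0.407 to 0.437 in muscle and from 0.374 to 0.430 in the other 12 libraries, which overlap. No test was made of this ratio.

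**Figure D2:**
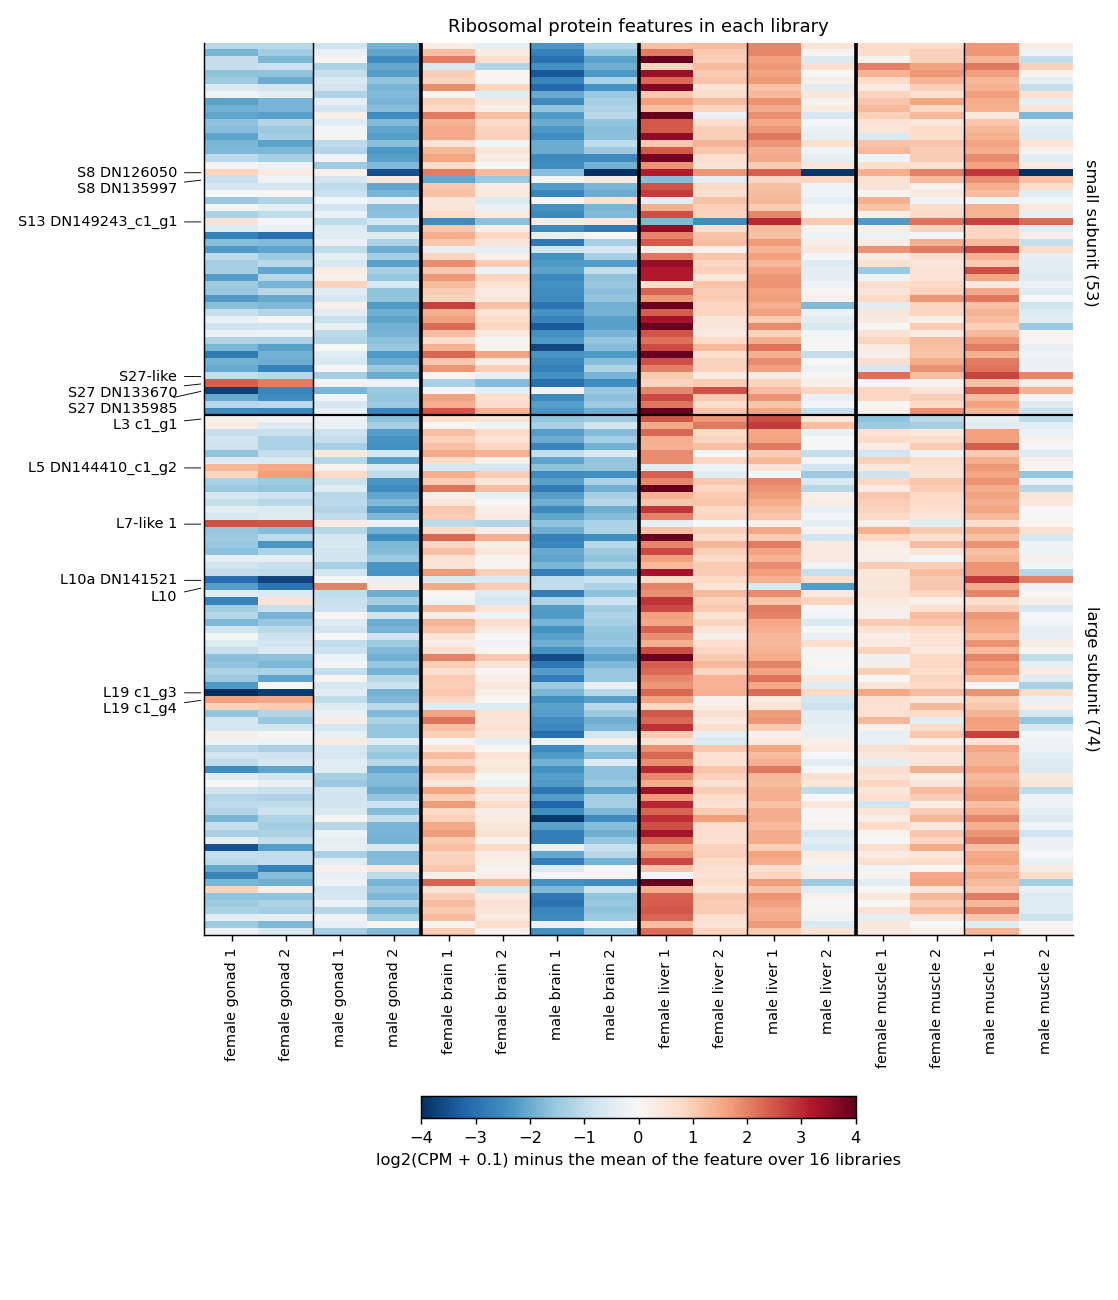
Heat map of the 127 members (rows, small subunit above the line) in the 16 libraries (columns), as log2(CPM + 0.1) less the mean of the member over the libraries. Most rows are red in liver and muscle and blue in gonad and male brain, and 13 members that stand apart are labelled.

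The first set of comparisons asked how each tissue stood against the mean of the other 3, over both sexes. Liver was the tissue in which ribosomal protein genes stood highest. Of 127 members, 111 were higher in liver and 0 were lower, where 46.2% of all features were called in either direction and 24% as higher. The median member was higher by 1.63 on the log2 scale, against a median of -0.04 over all features. At an unadjusted p of 0.05, 113 members differed, and DESeq2 called 111 higher and 0 lower. By limma on log2(FPKM + 1) 35 were called, 32 higher and 3 lower, and 31 with a pseudocount of 0.1. Without male liver 1 the count was 66 of 127, and the median difference stayed between 1.15 and 1.96 when any 1 library was left out.

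L3, which reaches into the catalytic centre of the large subunit, showed the clearest liver pattern. L3 DN130533_c1_g2 stood at 1192 and 1760 CPM in female liver and 2910 and 960 CPM in male liver. In the other tissues it ran from 154 CPM in female muscle to 517 CPM in female gonad, so the 4 liver libraries lay above the other 12. Its log2 difference was 2.62 ± 0.28 (SE; edgeR adjusted p = 6.73e-06). The second L3 feature, DN130533_c1_g1, was higher by 2.59 ± 0.33 (edgeR adjusted p = 2.67e-05). L11 DN141545_c0_g2, a copy of the protein that carries 5S ribosomal RNA with L5, was higher in liver by 1.98 ± 0.41 (edgeR adjusted p = 0.0016), but the call was lost by limma on log2(FPKM + 1) at 0.98 (adjusted p = 0.113) and within males at 1.58 (edgeR adjusted p = 0.0614). Its level was low, at 42.8 and 10.98 CPM in female liver and 12.3 and 10.6 CPM in male liver, against 0.81 to 9.10 CPM elsewhere. Of the 127 members, 16 were not called, and these included L7-like 1, L5 DN144410_c1_g2 and L22-like 1, with differences of -0.18, -0.24 and 0.06.

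In TMM-scaled CPM, most members stood higher in female liver 1 than in female liver 2, with a median ratio of 2.50 and a highest ratio of 34.6. Female liver 1 also held 9873 FPKM of 2 hemoglobins, against 2799 in female liver 2 and 118 and 175 in male liver, and 7.30% of its counts were mitochondrial, against 1.26% in female liver 2 and 1.30 and 1.09% in male liver. Their part in the liver result was not tested. Without female liver 1, 76 members were higher in liver and 0 lower.

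Muscle stood above the other tissues for fewer members and by less. Of 127 members, 50 were higher in muscle and 2 were lower, where 45.1% of all features were called, 21.7% as higher and 23.3% as lower. The median member was higher by 0.86, against -0.10 over all features. With recovered totals the split was 11 higher and 2 lower, with medians of 0.08 for the members and -0.79 for all features, and limma on FPKM also called 11 higher and 2 lower. The count of 52 was 19 without male muscle 1 and 30 without female muscle 2. The members called as higher were 21 of 53 in the small subunit and 29 of 74 in the large one, with medians of 0.86 in both.

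The 2 muscle calls below 0 were both L3. L3 DN130533_c1_g1 stood at 125 and 185 CPM in female muscle and 308 and 188 CPM in male muscle, against 534 to 2278 CPM in liver, 129 to 621 CPM in brain and 120 to 431 CPM in gonad. It was lower in muscle by -1.38 ± 0.39 (edgeR adjusted p = 0.011), and DN130533_c1_g2 by -1.29 ± 0.34 (edgeR adjusted p = 0.00701). Muscle overlapped brain and gonad here and lay under liver. Scaled to the median member, an alternative added after the data were seen, the 2 features were lower in muscle by -2.16 and -2.03 (edgeR adjusted p = 0.00157 and 0.00349).

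S27-like went the other way. It is a paralog of S27, in human cells a target of p53, and stood at 1156 and 569 CPM in female muscle and 1614 and 963 CPM in male muscle. The highest of the other 12 libraries was female liver 1, at 513 CPM, and the lowest was male brain 1, at 46.9 CPM. The muscle libraries lay above all of these, by 2.73 ± 0.24 on the log2 scale (edgeR adjusted p = 1.18e-06), and still by 1.89 ± 0.41 when scaled to the median member (edgeR adjusted p = 0.000954). The next 4 features were chosen after their values were seen. S2 DN131541_c4_g1, which sits at the message entry of the small subunit, had 5852 and 4425 CPM in female muscle and 6242 and 2716 CPM in male muscle, against 269 to 4795 CPM elsewhere. It was higher in muscle by 2.25 ± 0.30 (edgeR adjusted p = 5.46e-05), with overlap between muscle and liver. S14 DN130245, of the small-subunit platform, was higher by 2.56 ± 0.29 (edgeR adjusted p = 1.11e-05), with 38.6 and 46.7 CPM in female muscle and 68.98 and 18.2 CPM in male muscle, against 2.20 to 28.1 CPM elsewhere, which overlaps male muscle 2. L10a DN141521 was higher by 2.16 ± 0.21 (edgeR adjusted p = 3.60e-06) and S13 DN149243_c1_g1 by 2.20 ± 0.48 (edgeR adjusted p = 0.00206).

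In TMM-scaled CPM, gonad held the lowest levels of ribosomal protein messages next to male brain. As a share of recovered library totals, the members took 3.18 and 3.02% in female gonad and 4.04 and 2.22% in male gonad. These overlap female muscle, at 3.42 and 2.78%, and male liver 2, at 3.08%, so this order depends on the scaling. Of 127 members, 3 were higher in gonad and 103 were lower, where 60.2% of all features were called, 30.7% as lower. The median member was lower by -1.61, against -0.08 over all features. Without male gonad 2 the count was 3 higher and 61 lower. By limma on log2(FPKM + 1) 23 were called, 7 higher and 16 lower, and with a pseudocount of 0.1 it was 7 and 17. This split depended on the scaling: with libraries scaled by their recovered totals it was 7 higher and 21 lower, with a median member at -0.46 while the median of all features moved to 1.01. Measured from the median of all features, the members' median was -1.53 with TMM scaling and -1.47 with recovered totals.

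S27 DN135985 had the largest decrease among gonad members whose groups did not overlap. It stood at 11.9 and 25.6 CPM in female gonad and 44.4 and 56.6 CPM in male gonad, against 57.0 CPM in male brain 2 and up to 932 CPM in female liver 2 among the other libraries. The difference was -3.23 ± 0.36 (edgeR adjusted p = 7.30e-06). This feature is 5374 bases long and its closest nucleotide match is a tropomyosin alpha-1 chain-like message, so counts of that message cannot be told apart from those of S27. S14 DN130245 was lower in gonad by -2.52 ± 0.37 (edgeR adjusted p = 6.52e-05), S13 DN119359_c0_g2 by -2.42 ± 0.36 (7.40e-05) and L35a DN128077_c2_g4 by -1.97 ± 0.36 (0.000354). Within males the last 2 lost their calls, S13 at -0.84 and L35a at -1.24 (edgeR adjusted p = 0.16 and 0.0604). The L35a difference turned to 0.02 (adjusted p = 0.961) by limma on log2(FPKM + 1).

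The 3 members higher in gonad were L7-like 1 (1.71 ± 0.19, edgeR adjusted p = 7.47e-06), S27 DN133670 (1.34 ± 0.20, edgeR adjusted p = 9.22e-05) and L5 DN144410_c1_g2 (0.77 ± 0.28, edgeR adjusted p = 0.0302). L7-like 1 is a paralog of L7. Each of the 3 was higher in female than in male gonad, as described with the sex comparisons.

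The median member in brain stood below the other tissues as a mean of both sexes and within males, but not within females, as given below. Of 127 members, 0 were higher in brain and 32 were lower, where 43.2% of all features were called, 21.4% as lower, with a median of -0.95 against -0.07 over all features. The count of 32 lower was thus near the share of all features called as lower. At an unadjusted p of 0.05, 60 members differed. DESeq2 called 0 higher and 63 lower, limma on FPKM 2 higher and 18 lower, and edgeR with recovered totals 1 higher and 15 lower. The count of 32 was 9 without female brain 2 or without male brain 1, 20 without female brain 1 or without male gonad 1, 21 without male brain 2 and 52 without male muscle 2.

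Of the brain calls, 2 had no overlap with the other tissues, where 4.21% of all features had none. S27 DN133670 stood at 40.2 and 30.1 CPM in female brain and 12.2 and 17.7 CPM in male brain, against 84.7 CPM or more in the other 12 libraries (-2.85 ± 0.26, edgeR adjusted p = 3.05e-06). L7-like 1 stood at 25.6 and 23.5 CPM in female brain and 17.5 and 22.2 CPM in male brain, against 38.3 CPM or more elsewhere (-1.72 ± 0.23, edgeR adjusted p = 6.98e-05). Scaled to the median member, S27 DN133670 kept its call at -2.02, but L7-like 1 did not at -0.88 (edgeR adjusted p = 0.00231 and 0.181).

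Each tissue was also set against the other 3 within each sex, in fits added after the data were seen. In females, brain had 3 members higher and 6 lower with a median of 0.32, where 37.3% of all features were called, 20.6% as higher and 16.8% as lower. In males, brain had 0 higher and 91 lower with a median of -2.14, where 29.1% of all features were called, 15.4% as higher and 13.8% as lower. Muscle had 11 higher and 2 lower in females (median 0.13), where 37.4% of all features were called, 18.1% as higher and 19.2% as lower. In males muscle had 69 higher and 0 lower (median 1.59), where 33.4% were called, 18.4% as higher and 15% as lower. Gonad had 3 higher and 97 lower in females (median -2.26), where 61.6% of all features were called, 30.6% as higher and 31% as lower. In males gonad had 1 higher and 21 lower (median -0.95), where 29.4% were called, 16.2% as higher and 13.1% as lower. Liver had 79 higher and 0 lower in females (median 1.60), where 32.6% of all features were called, 19.1% as higher and 13.4% as lower. In males liver had 72 higher and 0 lower (median 1.65), where 28.5% were called, 16.2% as higher and 12.3% as lower.

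**Figure D3:**
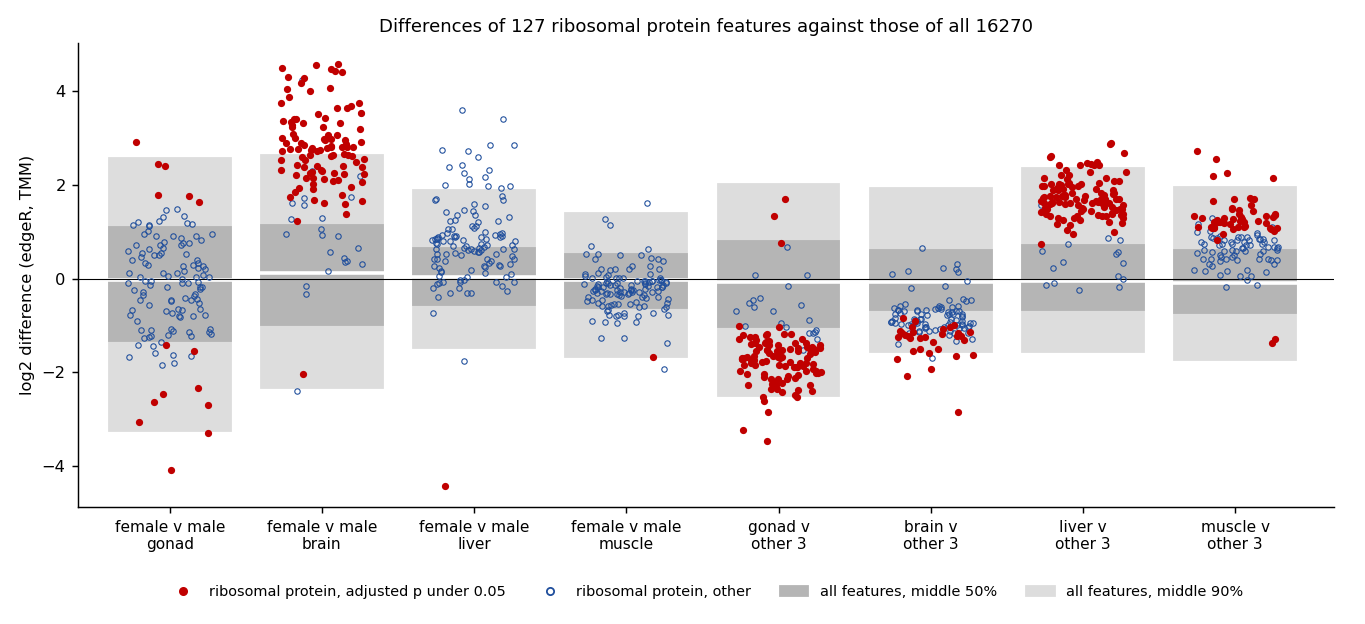
Log2 differences (edgeR, TMM scaling) of the 127 members in the female against male and the tissue comparisons, with members at an adjusted p under 0.05 filled, over the middle 50% and 90% of all 16270 features in grey. Female against male brain is centred on 2.64, and gonad against the other 3 tissues on -1.61.

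The second set of comparisons asked how females differed from males within each tissue. Brain gave the largest difference. Of 127 members, 102 were higher in female brain and 1 was lower, where 39.8% of all features were called, 21.4% as higher. The median member was higher by 2.64, against 0.12 over all features, and 124 members had no overlap between the 2 female and the 2 male libraries, as did 77.9% of all features. The sex difference in brain was higher than the mean sex difference of the other 3 tissues for 30 members and lower for 0 by edgeR, where 11.7% of all features were called, 6.15% as higher and 5.53% as lower, and 104 members reached an unadjusted p of 0.05. DESeq2 called 96 and 0 for the same contrast, and limma on log2(FPKM + 1) 27 and 0, with 8 and 0 at a pseudocount of 0.1. The shares of all features called are those of edgeR's main fit and not of these methods. With DESeq2-type size factors edgeR called 19 and 0. This contrast was added after the data were seen, and its count ran from 0, without any 1 of the 4 brain libraries, to 92, without female liver 1.

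A fit that leaves out 1 library of a pair assumes that the lone library varies like the other groups. The count of 103 fell to 2 without female brain 1, 2 without male brain 1 and 12 without male brain 2, and was 88 without female brain 2. The median difference stayed between 2.10 and 2.93. Markers of other cell types and the mitochondrial share stood as follows in the brain libraries. Mitochondrial features took 24.8 and 19.2% of the counts in female brain and 2.44 and 2.42% in male brain. The 2 hemoglobins summed to 7143 and 17408 FPKM in female brain and 33.6 and 872 FPKM in male brain. The 3 leukocyte features summed to 2230 and 1431 FPKM in female brain and 1517 and 758 FPKM in male brain, which overlap. The myelin gene MBP stood at 1371 and 1852 FPKM in female brain and 134 and 156 FPKM in male brain. The part of these in the result was not tested.

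The 5 members with the largest increases without overlap were L8, S20, S18, L36 and L21 features. L8 DN128846_c1_g2 had 1662 and 909 CPM in female brain and 51.5 and 61.7 CPM in male brain, a difference of 4.50 ± 1.06 (edgeR adjusted p = 0.00802). S20 DN130898_c1_g3 had 70.3 and 27.03 CPM in female brain and 1.34 and 3.15 CPM in male brain (4.43 ± 1.22, edgeR adjusted p = 0.0138). S18 DN141349_c2_g2 and L36 DN139763_c1_g2 differed by 4.57 ± 1.38 and 4.59 ± 1.44 (edgeR adjusted p = 0.0205 and 0.0237). In L21 DN136519_c2_g3 the male libraries held 3 counts in all and the female libraries 43, a ratio of 23.4 with an exact 95% interval of 7.50 to 118 that covers counting error only. Each of these calls was lost without male brain 1 or without male brain 2, and all but that of L8 also without female brain 1. L35 DN132241, the member of the highest FPKM, had 3746 and 2537 CPM in female brain and 482 and 936 CPM in male brain, again without overlap (2.15 ± 0.68, edgeR adjusted p = 0.0253). The 98 members with a mean count of at least 100 had a median of 2.64, and 87 of them were called higher. Members whose effective length was 50 bases or more had a median of 2.34, with 62 of 82 called higher, and the shorter ones a median of 2.95, with 40 of 45 called higher.

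S8 DN135997 was the member called lower in female brain. It stood at 0.53 and 0.84 CPM in female brain and 2.46 and 3.30 CPM in male brain (-2.03 ± 0.63, edgeR adjusted p = 0.0225), while the main S8 feature, DN125077, was higher in female brain by 2.56 ± 0.61 (edgeR adjusted p = 0.00846). The call was lost without female brain 1, without female brain 2 or without male brain 2. It carried at most 0.923% of the counts named S8 in any of the 16 libraries.

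In gonad the members split. Of 127 members, 6 were higher and 9 were lower in female than in male gonad, where 47.1% of all features were called, 23.3% as higher and 23.8% as lower, and the median difference was -0.09 against -0.02 over all features. With recovered totals the split was 3 higher and 26 lower, while the median of all features moved to -0.72. The members' median was 0.56 without male gonad 1 and -0.53 without male gonad 2, and the count was 8 without female gonad 1. The 3 leukocyte features summed to 52.4 and 130 FPKM in female gonad and 546 and 4027 FPKM in male gonad, without overlap, and their part in the result was not tested. In the large subunit 5 were higher and 6 lower, and in the small subunit 1 was higher and 3 were lower.

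The clearest change was within L19, a protein of the large subunit that bridges to the small one. L19 DN125640_c1_g4 stood at 979 and 945 CPM in female gonad and 160 and 93.8 CPM in male gonad (2.92 ± 0.59, edgeR adjusted p = 0.00155). L19 DN125640_c1_g3, of the same assembled cluster, stood at 28.6 and 41.6 CPM in female gonad and 429 and 158 CPM in male gonad (-3.06 ± 0.69, edgeR adjusted p = 0.00302). The groups did not overlap in either feature, as in 78.1% of all features, and the 2 features moved in opposite directions. The ratio of c1_g4 to c1_g3 was 34.3 and 22.7 in female gonad and 0.37 and 0.59 in male gonad, and between 0.15 and 0.50 in the 12 libraries of the other tissues. As a share of all L19 counts, c1_g4 held 96.6 and 95.2% in female gonad and 27.04 and 37.02% in male gonad. The third feature, c1_g7, was also higher in female gonad (1.77 ± 0.55, edgeR adjusted p = 0.0178), at 5.94 and 6.35 CPM in female gonad and 2.18 and 1.42 CPM in male gonad, though not with recovered totals (1.07, edgeR adjusted p = 0.114), without either female gonad library or without male gonad 2. Copies as close as these can share reads, so each feature's level is less certain than their sum.

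L7-like 1 stood at 309 and 307 CPM in female gonad and 67.4 and 45.0 CPM in male gonad (2.46 ± 0.38, edgeR adjusted p = 0.000289). In the other tissues it ran from 17.5 to 87.6 CPM, so female gonad lay above all other libraries. S27 DN133670 behaved alike, with 524 and 409 CPM in female gonad and 90.6 and 84.7 CPM in male gonad (2.41 ± 0.40, edgeR adjusted p = 0.000423), against 12.2 to 222 CPM in the other tissues. The sex difference in gonad exceeded the mean of the other tissues by 2.56 ± 0.43 for L7-like 1 and by 2.12 ± 0.44 for S27 DN133670 (edgeR adjusted p = 0.000783 and 0.00286). Over all members the gonad contrast of sex differences had 4 higher and 14 lower, where 35.7% of all features were called, 17.2% as higher and 18.5% as lower, with 3 higher and 35 lower under recovered totals and 5 higher and 25 lower by DESeq2. Its count was 8 without female gonad 1 or without male gonad 1, 10 without female gonad 2, 11 without female muscle 2, and 31 to 36 without female liver 2, male liver 1 or male muscle 1. Neither L7-like 1 nor S27 DN133670 lost its call in gonad when any 1 of the 16 libraries was left out.

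L5 also held 2 unlike features. L5 binds 5S ribosomal RNA and, in mammals, restrains MDM2. L5 DN144410_c1_g2 stood at 429 and 495 CPM in female gonad and 188 and 110 CPM in male gonad (1.63 ± 0.52, edgeR adjusted p = 0.0204). As a ratio to the main L5 feature, DN129580, it was 0.196 and 0.239 in female gonad, 0.134 and 0.158 in male gonad and 0.0113 to 0.0754 in the other 12 libraries. The 4 gonad libraries lay above the rest in this ratio. In gonad against the other tissues the 2 features were called in opposite directions, at 0.77 ± 0.28 for DN144410_c1_g2 and -1.50 ± 0.43 for DN129580 (edgeR adjusted p = 0.0302 and 0.00869). L36 DN139763_c1_g3 was higher in female gonad by 1.80 ± 0.67 (edgeR adjusted p = 0.0403), but by limma on log2(FPKM + 1) the difference was -0.62 (adjusted p = 0.385), and edgeR's call was lost in 6 of the 16 fits that left out 1 library.

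The members lower in female gonad included a copy of L10, a protein that joins the large subunit late in its assembly. L10 DN137147 stood at 0.98 and 0.54 CPM in female gonad and 19.95 and 5.93 CPM in male gonad (-4.08 ± 0.84, edgeR adjusted p = 0.00172). L10a DN141521, named after the protein of the L1 stalk, stood at 1.87 and 1.15 CPM in female gonad and 16.5 and 13.3 CPM in male gonad (-3.29 ± 0.45, edgeR adjusted p = 0.000135). The female and male gonad libraries did not overlap in either feature, as in 78.1% of all features. Female gonad held the 2 lowest values of L10a DN141521 among the 16 libraries, while for L10 DN137147 male liver 2, at 0.957 CPM, lay between the female gonad libraries. L35 DN146561 was lower by -2.70 ± 0.54 (edgeR adjusted p = 0.00138), but by limma on log2(FPKM + 1) this was -1.47 (adjusted p = 0.222) and not called. The features of L10, L10a and L35 with the highest mean counts were not called and lay above 0. L10 DN134562_c1_g2 stood at 0.95, L10a DN148094 at 0.73 and L35 DN132241 at 0.55 (edgeR adjusted p = 0.262, 0.358 and 0.514). S13 DN119359_c0_g2, at 0.41 and 0.31 CPM in female gonad and 2.27 and 2.26 CPM in male gonad, was lower by -2.63 ± 0.61 (edgeR adjusted p = 0.00337). S27 DN135985, the feature that matches tropomyosin, was lower by -1.43 ± 0.52 (edgeR adjusted p = 0.0378), opposite to S27 DN133670.

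**Figure D4:**
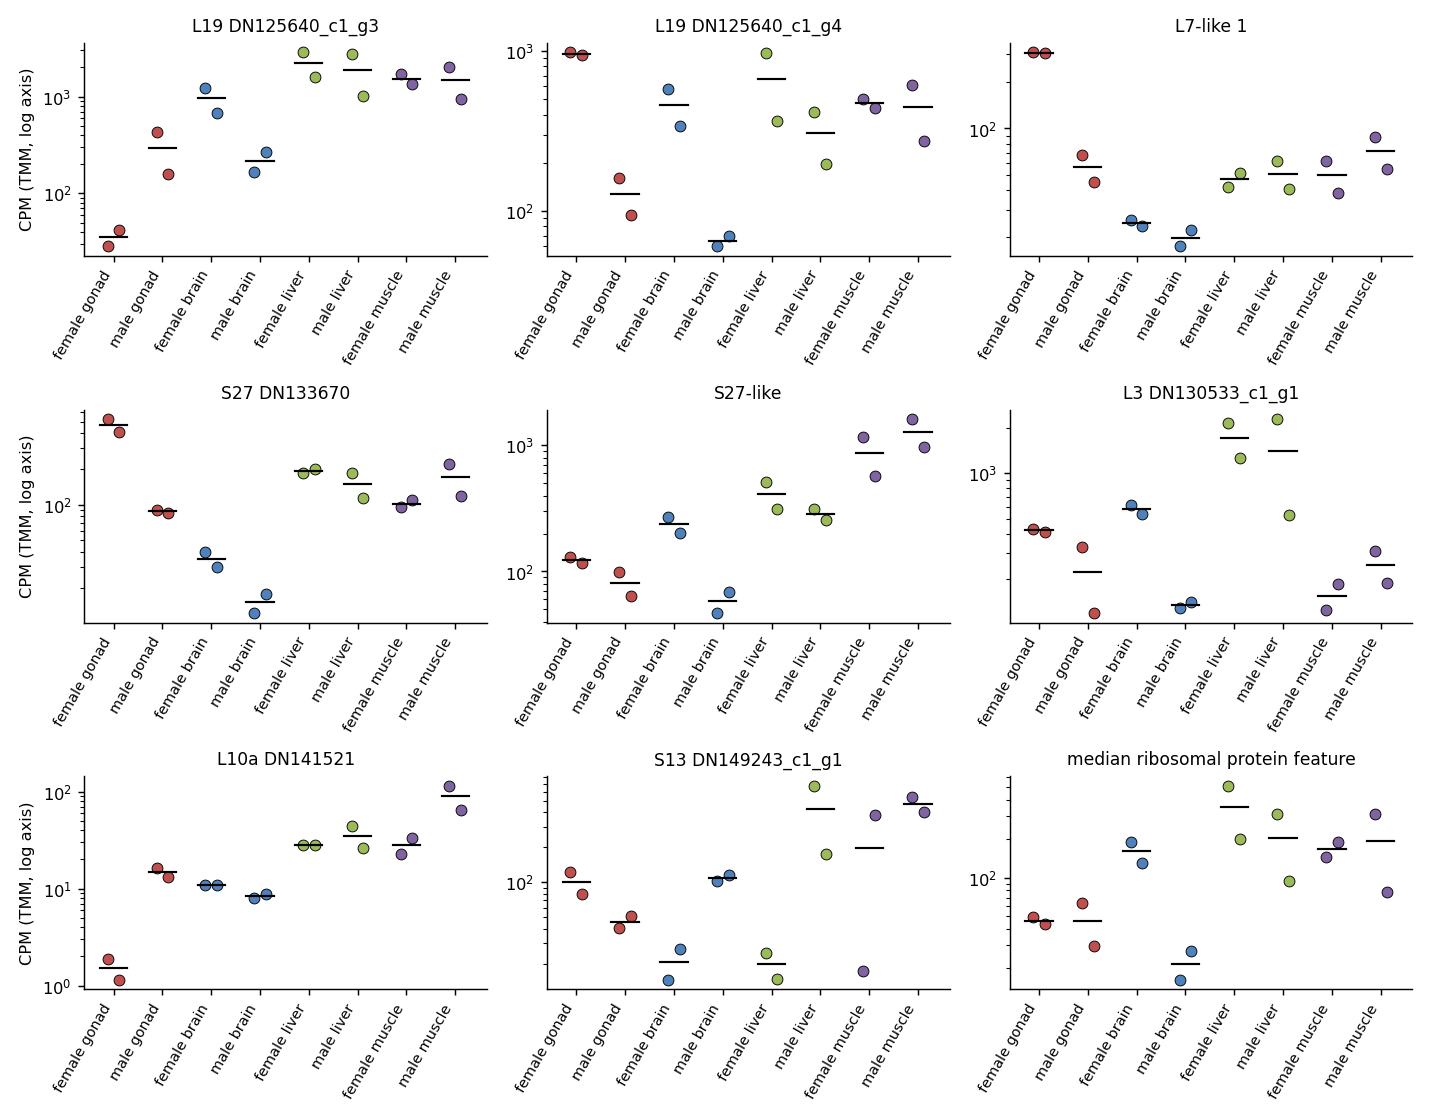
CPM on a log axis, by library, of 8 members that stand apart and of the median member, in female and male gonad, brain, liver and muscle, with bars for group means. L19 c1_g3 is lowest and L19 c1_g4 highest in female gonad, S27-like is highest in muscle, and L3 stands high in liver and low in muscle.

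In liver and muscle few members were called. In liver 0 members were higher in females and 1 was lower by edgeR, where 2.78% of all features were called, 1.46% as higher and 1.33% as lower, with a median difference of 0.74 against 0.03 over all features, and 18 members reached an unadjusted p of 0.05. DESeq2 called 3 higher and 1 lower, and limma on FPKM 0. The median was -0.07 without female liver 1, and without female liver 2 the count was 15 higher. The member called was S13 DN149243_c1_g1, with 24.7 and 14.6 CPM in female liver and 676 and 174 CPM in male liver (-4.43 ± 1.04, edgeR adjusted p = 0.0411), and by limma on log2(FPKM + 1) it was -4.08 (adjusted p = 0.051). It lost its call in 11 of the 16 fits that left out 1 library, those without female liver 1, female liver 2 or male liver 1 and without any 1 brain or gonad library, and the adjusted p then ran up to 0.275. This feature is 3079 bases long and its closest protein is protein phosphatase 1 regulatory subunit 15A-like, so its counts cannot be told apart from those of that gene. It was also far apart between the female muscle libraries, at 17.4 and 378 CPM, against 548 and 400 CPM in male muscle.

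In muscle 0 members were higher in females and 1 was lower by edgeR, where 2.96% of all features were called, 1.2% as higher and 1.75% as lower, with a median of -0.22 against -0.02, and 2 members reached an unadjusted p of 0.05. DESeq2 called 0 higher and 1 lower, and limma on FPKM 0 higher and 4 lower. The median was 0.87 without male muscle 1 and -0.88 without male muscle 2. L10a DN141521 stood at 22.6 and 33.6 CPM in female muscle and 115 and 65.0 CPM in male muscle (-1.68 ± 0.41, edgeR adjusted p = 0.042). It lost its call in 11 of the 16 fits that left out 1 library, those without either female muscle library, male muscle 1 or any 1 brain or gonad library.

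Scaling to the median member sets the median of the members with a mean count of at least 100 level over the libraries. Low counts of members called, and the shares of all features called, thus follow in part from the scaling. With it, the members called by edgeR numbered 6 in female against male gonad, where 13.2% of all features were called. In female against male brain they numbered 10, where 63.3% of all features were called. In female against male liver the count was 1, with 0.283% of all features called, and in muscle 0, with 0.0123%. By tissue, 13 members were called in gonad, 5 in brain, 11 in liver and 7 in muscle, where 62% of all features were called in gonad, 32.8% in brain, 63.9% in liver and 32.9% in muscle. In gonad the largest were L7-like 1 at 3.20, S27 DN133670 at 2.90 and the L5 features DN144410_c1_g3 and c1_g2 at 2.32 and 2.31. In muscle they were L3 below and S27-like, S14, S13, S2 and L10a above, and in liver L3 DN130533_c1_g2 was the 1 feature above, at 1.06. The paralog L22-like 1 stood below it in liver by -1.40 ± 0.54 (edgeR adjusted p = 0.0237). Of the results on named members, 18 kept the call under this scaling and 23 lost it.

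When the counts of features with 1 name were summed, 73 names remained. Of these, 65 were higher in female than in male brain and 0 were lower, with a median of 2.61. In liver 70 were higher and 0 lower, in muscle 34 and 1, in gonad 1 and 65, and in brain 0 and 20. In female against male gonad 2 were higher and 1 was lower. In the main fit of single features, 39.8% of all features were called in female against male brain and 47.1% in female against male gonad. By tissue these shares were 46.2% in liver, 45.1% in muscle, 60.2% in gonad and 43.2% in brain, where 21.4% were called as lower. The medians over small- and large-subunit members were 2.81 and 2.42 in female against male brain, 1.71 and 1.61 in liver, -1.74 and -1.51 in gonad, and -0.45 and 0.12 in female against male gonad.

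Other translation genes were set beside the members, from lists taken from general knowledge, and the 6 named were chosen after their values were seen. The stalk proteins P0, P1 and P2 and a ubiquitin fusion had 5 features. All 5 were higher in female than in male brain and all 5 were higher in liver, by 1.22 to 2.06 on the log2 scale, and 4 of 5 were lower in gonad. P1 (Rplp1) stood at 16271 and 10254 FPKM in female brain and 2307 and 3556 FPKM in male brain. The list of translation factors and other TOP messages had 29 features. Of these 12 were higher and 0 lower in female against male brain, where 39.8% of all features were called. In liver 19 were higher and 1 lower, and in muscle 20 and 1, where 46.2 and 45.1% of all features were called. In gonad 2 were higher and 20 lower, and in brain 0 and 19, where 60.2 and 43.2% were called. In female against male gonad 9 were higher and 1 was lower, where 23.3% of all features were called as higher and 23.8% as lower, with a median of 0.95, against -0.09 for the ribosomal proteins. Among those 9 were TPT1 DN124714_c0_g3, at 2095 and 1451 FPKM in female gonad and 654 and 484 FPKM in male gonad, and the nucleolar histone chaperone NPM1, at 392 and 248 FPKM in female gonad and 151 and 91.7 FPKM in male gonad (2.22 ± 0.57 and 2.04 ± 0.52, edgeR adjusted p = 0.00637 and 0.00627). Naca, whose muscle form acts in myofibrils in fish and mouse, was higher in muscle by 8.07 ± 0.31 (edgeR adjusted p = 1.80e-09).

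The list of mTOR and MYC regulators had 22 features, with Tsc1, Tsc2, EIF4EBP2 and Larp1 beside Mtor, Rptor, Rheb, the S6 kinases and MYC. Its counts were not split by whether a gene promotes or restrains the pathway, so they give no direction of mTOR signalling. In female against male brain 2 were higher and 6 lower, with a median of -0.86, where 21.4% of all features were called as higher and 18.4% as lower. In liver 7 were higher and 2 lower, in muscle 11 and 1, in gonad 4 and 9 and in brain 3 and 12, beside 46.2, 45.1, 60.2 and 43.2% of all features called in these tissues. The kinase Mtor itself stood at 3.25 and 4.58 FPKM in female brain and 13.3 and 12.3 FPKM in male brain. The MYC copy myca stood at 0.79 and 4.98 FPKM in female liver and 108 and 29.02 FPKM in male liver (-4.52 ± 0.77, edgeR adjusted p = 0.0109).

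**Figure D5:**
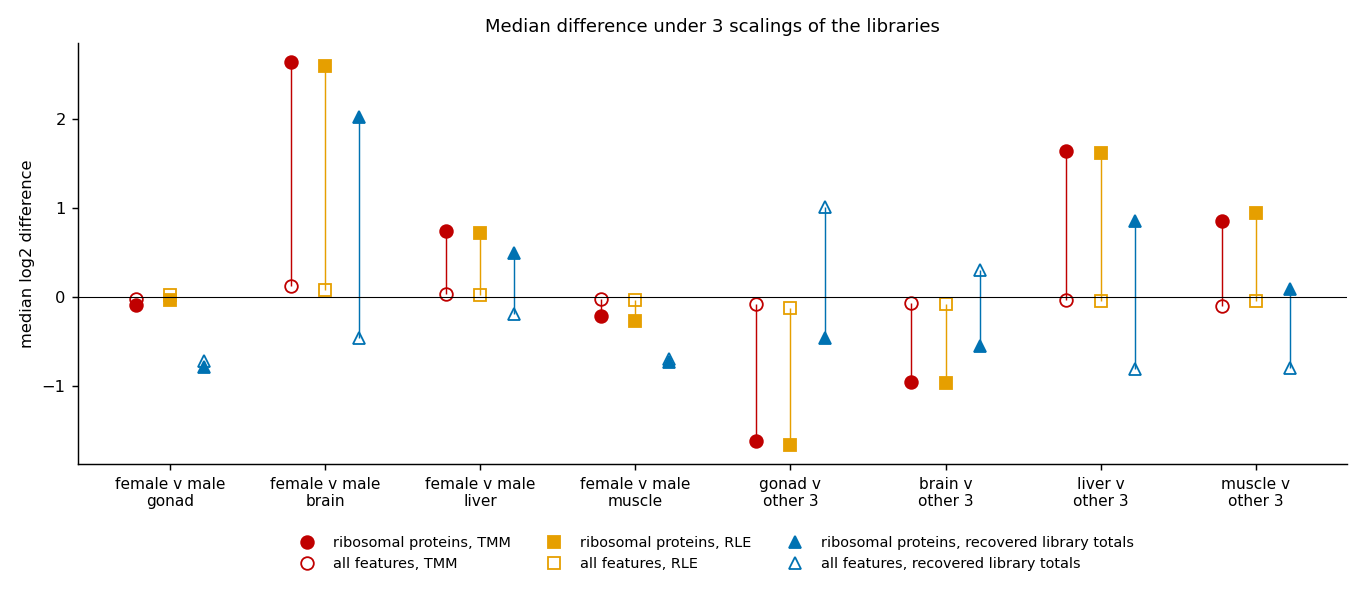
Median log2 difference of the members (filled) and of all features (open) in each comparison under TMM, RLE and recovered-total scaling of the libraries. The distance between the filled and the open mark stays near the same length in each tissue comparison while both marks move, with the all-feature median in gonad at 1.01 under recovered totals and -0.08 under TMM.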

How the data were processed

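Total RNA of 4 tissues was sequenced on Illumina instruments, per the labels' protocols. The authors deposited estimated counts and FPKM per assembled feature, made with RSEM per the submitters' processing notes, with its version not given in the sources used here. The deposited estimated counts were rounded to whole numbers, and 16 value columns of samples not labelled here were not used. Library totals were worked out from each feature's count, length and FPKM. edgeR 4.0.16 (R 4.3.3) fitted 8 group means over 16 libraries, with TMM scaling, quasi-likelihood tests and Benjamini-Hochberg adjustment, threshold 0.05. SE is the log2 difference over the square root of F. The filter of 1 FPKM in 2 libraries removed no feature. On counts simulated for female against male gonad over 16270 genes, 30.8% of changes of 2 and 84.9% of changes of 3 (log2) were called, with 3 false calls. The simulation held 107 changes of 2 and 93 of 3, with all other genes flat. In the data 47.1% of features were called in this comparison, so the simulated shares do not give the recovery there. Alternatives used DESeq2 1.42.0 and limma 3.58.1 on log2(FPKM + 1). Named members were the 5 highest and 3 lowest by mean FPKM, the paralogs, the 3 widest and 3 narrowest, up to 5 in each direction per comparison among called members without overlap, and copies of 1 name called in opposite directions. The members and lists were chosen with earlier results of these data known. Intervals cover counting error only.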

Additional observations from a re-analysis of the deposited data

Results flagged for a closer look

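In 18 of 127 members the sex difference in gonad departed from the mean sex difference of the other 3 tissues, by edgeR's interaction test with Benjamini-Hochberg adjustment over all features. Of these, 4 were higher and 14 lower, where 35.7% of all features were called, 17.2% as higher and 18.5% as lower. The 4 higher and the 5 lower ones of the largest size are named. The female against male difference in gonad was the higher one for L5 DN144410_c1_g2 by 1.63, S27 DN133670 by 2.12, L7-like 1 by 2.56 and S13 DN149243_c1_g1 by 3.83. It was the lower one for L10 DN137147 (-5.77), S30 DN145877 (-4.10), L19 DN125640_c1_g3 (-3.88), S16 DN144542_c1_g3 (-3.67) and S26 DN126585_c3_g2 (-3.63). In gonad alone S13, S30 and S26 were not called between the sexes, at 1.13, -1.59 and -1.24 (edgeR adjusted p = 0.321, 0.283 and 0.357). In liver alone their female against male differences were -4.43, 2.60 and 2.85. Their contrasts thus take in sex differences of the other tissues and are not sex differences called in gonad. When any 1 of the 16 libraries was left out, L5 DN144410_c1_g2 lost its call in 13 fits, S26 DN126585_c3_g2 in 8, S30 in 5, S13 in 3 and S16 in 2, and the other 4 named lost it in 0. L5 DN144410_c1_g2 also lost it with recovered totals (1.35, edgeR adjusted p = 0.0621) and by limma on log2(FPKM + 1) (1.42, adjusted p = 0.0685). By the same limma, S30 stood at -2.52 and S26 at -1.85 (adjusted p = 0.0609 and 0.189). In S16 DN144542_c1_g3 these rest on 5 counts in female gonad and 47 in male gonad, and on 28 counts in female brain and 4 in male brain.

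In 30 of 127 members the sex difference in brain departed from that of the other tissues, by the same test. All 30 were higher, where 11.7% of all features were called, 6.15% as higher and 5.53% as lower. The 5 of the largest size were S26 DN126585_c3_g5 (3.76), S27 DN141374 (3.77), L30 DN140712_c7_g7 (3.98), L17 DN124356_c1_g3 (4.04) and S16 DN144542_c1_g3 (4.04). Each of these 5 lost its call without any 1 of the 4 brain libraries, and over all 16 fits the calls lost numbered 12, 12, 8, 12 and 4 in that order.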

How the results depend on the processing

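Counts of members called, of 127, are given in turn for female against male gonad, brain, liver and muscle, for gonad, brain, liver and muscle against the other tissues, and for the sex difference in gonad and in brain. Leaving out 1 library gave 8 to 17, 2 to 105, 0 to 15, 0 to 1, 64 to 112, 9 to 52, 66 to 114, 19 to 78, 8 to 36 and 0 to 92. Only the counts that moved by over 1.5 times are given for the other settings. With DESeq2-type size factors the sex difference in brain had 19. With recovered totals, female against male gonad had 29 and muscle 3, gonad 28, brain 16, muscle 13 and the sex difference in gonad 38. With DESeq2, female against male liver had 4, brain 63, and the sex differences in gonad and brain 30 and 96. With limma on log2(FPKM + 1), female against male liver had 0 and muscle 4, gonad 23, brain 20, liver 35 and muscle 13, and with a pseudocount of 0.1 these were 0, 4, 24, 20, 31 and 13, with 8 for the sex difference in brain. Within females brain had 9 and muscle 13, and within males gonad 22, brain 91 and liver 72. Scaled to the median member, which is itself made level, the counts were 6, 10, 0 for muscle, 13, 5, 11, 7, 6 and 3. With features of 1 name summed, 73 names gave 3, 65, 0, 0, 66, 20, 70, and 6 and 14 for the sex differences. Those are counts of 73 names, so they cannot be read directly against the counts of 127 members. Shares of all features called are given in this report for the main fit, the fits within each sex and scaling to the median member only. Under the other settings the counts therefore do not show whether members changed more than features at large. The changes among counts of 127 were measured and the cause was not tested. The 4 reversals were L36 DN139763_c1_g3 in female against male gonad (-0.62 and -0.63) and L35a DN128077_c2_g4 in gonad (0.016 and 0.012), both by limma at the 2 pseudocounts. Of the other results on named members outside the fits that left out a library, 378 kept direction and side of the threshold and 46 lost the call. The 378 include 41 with another filter on low counts and 41 without a filter. Both settings kept the same 16270 features as the main fit, so these results could not differ from it.

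Over all 28 pairs of groups, the correlation of the deviations of same-numbered libraries, taken over all features, had a median of 0.07 and exceeded 0.1 in 13. These include pairs of opposite sex, which cannot come from 1 fish, so this median does not decide on pairing within a sex. With the replicate number as a block, female against male liver had 2 members called and the sex difference in brain 46, and the other counts stayed within 1.5 times. This block gives both sexes the same offset for a number. It therefore cannot show how the counts would stand if libraries were paired by fish within a sex. Among male groups the correlation exceeded 0.1 in 6 of 6 pairs (0.19 to 0.59, median 0.37). Among female groups it did so in 3 of 6 (-0.31 to 0.23, median 0.12). Over the members alone the correlation ran from 0.10 to 0.73 among male groups and from -0.30 to 0.58 among female groups. Between groups of opposite sex it ran from -0.36 to 0.59. The library numbered 1 held the larger share of ribosomal protein counts in every group but male brain, and the source of this was not tested. The labels do not tie a number to a fish, and the main fit treats all libraries as independent. Members with few counts are limited by depth.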

Other observations

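A single S8 feature, DN126050, chosen after its values were seen, divided the libraries by number within males. It ran from 1.61 to 5.98 CPM in the 4 male libraries numbered 2, against 21.8 to 497 CPM in the 4 male libraries numbered 1 and 86.8 to 628 CPM in the 8 female libraries. As a share of all S8 counts it was 0.248 to 1.51% in the male libraries numbered 2, 8.17 to 13.8% in those numbered 1 and 7.00 to 12.3% in females. The 3 ranges of shares show the male libraries numbered 2 apart from both other sets. Over all 16270 features, 2 were at least 3-fold lower in each of the 4 male libraries numbered 2 than in each of the other 12, against 0 for male number 1, 1 for female number 1 and 0 for female number 2. The labels do not tie a number to a fish, and the source of the difference was not tested.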
